A study of Mus musculus with 12 samples.

Results

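Genes of oxidative phosphorylation were followed through a BMAL1 ChIP-seq and mRNA-seq experiment on mouse embryonic fibroblasts. They were chosen by symbol from the table of read counts per gene: names that begin with Nduf, with Atp5, with Uqcr or with Cox and a digit, and Sdha to Sdhd, with at least 100 reads summed over the 4 mRNA libraries. The table holds 23420 genes, of which 12437 reached 100 reads. The names matched 101 of them, and 93 had enough reads to be members. They comprise 43 genes of complex I, 4 of complex II, 8 of complex III, 22 of complex IV and 16 of the ATP synthase. Assembly factors make up 8 of the complex I genes and 9 of the complex IV genes. BMAL1 regions were assigned to a member when their nearest edge lay within 1 kb of its annotated start, which gave 13 regions at 13 members out of 4740 regions in all.

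All 12 libraries came from fibroblasts of the 129/sv strain background that are per1 -/-, per2 -/-, nr1d1 -/- and nr1d2 -/- and carry the transgene PER2-ER, so controls and treated cells share these knockouts. Cells received either 1 µM 4-hydroxytamoxifen (4-OHT) or 0.1% ethanol (EtOH), the solvent, and were collected after 4 h. For each treatment there were 2 mRNA libraries, 2 BMAL1 ChIP libraries and 2 inputs, that is, sonicated chromatin without immunoprecipitation. The labels name neither the promoter of the transgene nor whether the line is 1 clone, and they do not say whether replicates are separate cultures, so the p-values below measure only the spread between these libraries. In the circadian clock BMAL1 binds DNA with its partner CLOCK and activates genes, and PER2 represses them. The comparison asks what the PER2 fusion, switched on by 4-OHT, does to BMAL1 on DNA and to the mRNA of nearby genes. No cells without the transgene were included, so an effect of 4-OHT itself cannot be told apart from that of the fusion.

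Oxidative phosphorylation passes electrons from NADH (through complex I) and succinate (through complex II) to complex III and then to oxygen at complex IV, and the proton gradient built on the way drives the ATP synthase. Each complex except complex II combines subunits encoded in the mitochondrial genome with subunits encoded in the nucleus, and only nuclear genes are members here. Nuclear respiratory factors, ETS-family factors such as GABP, and YY1 are known to act at many promoters of these genes, while the clock activator binds the E-box CACGTG.

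The mRNA libraries held between 60267540 and 89695667 counted reads. Totals ranged from 13502201 to 20712373 reads for the ChIP libraries and from 12481308 to 33454366 for the inputs. Markers of fibroblasts were high in sum: they made between 28600 and 31200 CPM (counts scaled to library size) per library, with Fn1, Col1a2 and Col1a1 the most abundant. Not all were high: Thy1 and Lum were listed at 0 in every library, Dcn stood at 0.115 to 0.199 CPM and Pdgfra at 11.1 to 13.3. Epithelial markers summed to 12.6 to 16.7 CPM, striated muscle markers to 24.8 to 30.9, neural markers to 7.91 to 10.2, immune markers to 2.97 to 3.28 and endothelial markers to 0.0502 to 0.1. Of these other cell types' markers, Tubb3, a neuronal tubulin, was the one that passed the test (log2 change 0.49, edgeR adjusted p = 0.0142). The clock genes Nr1d1, Nr1d2 and Per3 fell and Cry1 and Cry2 rose with 4-OHT, so all 5 clock controls passed the test (edgeR quasi-likelihood, Benjamini-Hochberg adjusted p at most 7.8e-05). Reads on Nr1d1 and Nr1d2 were present in every library despite the labelled knockouts, and the counts per gene do not separate a deleted part from the rest of a gene.

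Of the 93 members, 13 (14.0%) had a BMAL1 region within 1 kb, against 2800 of 12420 genes (22.5%) with at least 100 reads and 1 annotated start. That difference was not tested. Complex I accounted for 9 of the 13: the subunit genes Ndufa6, Ndufa7, Ndufb8, Ndufs1, Ndufs7 and Ndufv3 and the assembly factor genes Ndufaf4, Ndufaf6 and Atp5sl, the last now called Dmac2. Another 3 belonged to the ATP synthase (Atp5d, Atp5f1 and Atp5g2), and 1 to complex IV (Cox20, which encodes an assembly factor for the COX2 subunit). None of the complex II or complex III genes had one. At the edge of the distance rule, Atp5f1 was just inside with its region 965 bp from the start, and Ndufs6 was the nearest outside at 2342 bp.

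The letters upstream of 5 of these starts show how they differ, with capitals for motifs that a search found (E-box CACGTG, its variant CACGTT, and the palindrome bound by nuclear respiratory factor NRF1). Atp5sl and Ndufa7 are shown for the E-box inside their region, while Ndufa6, Ndufaf4 and Atp5g2 were chosen after their values were seen, as the regions with the strongest signal and a region that was not called. The sequences come from the RefSeq promoter table of assembly GRCm38.p6, which shares its coordinates with mm10, and are cut to the bases upstream of all RefSeq starts and outside annotated exons. They read 5′ to 3′ along the gene's strand and cover chr7:25619243-25619413 (plus strand, Atp5sl), chr17:33824499-33824571 (plus, Ndufa7), chr15:82354292-82354541 (minus, Ndufa6), chr4:24897833-24898082 (plus, Ndufaf4) and chr15:102671048-102671297 (minus, Atp5g2).
Atp5sl: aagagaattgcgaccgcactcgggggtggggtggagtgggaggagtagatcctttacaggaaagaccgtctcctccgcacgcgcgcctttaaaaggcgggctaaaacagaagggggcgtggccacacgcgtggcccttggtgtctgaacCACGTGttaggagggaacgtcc
Ndufa7: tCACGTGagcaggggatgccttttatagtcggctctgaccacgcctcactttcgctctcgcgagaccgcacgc
Ndufa6: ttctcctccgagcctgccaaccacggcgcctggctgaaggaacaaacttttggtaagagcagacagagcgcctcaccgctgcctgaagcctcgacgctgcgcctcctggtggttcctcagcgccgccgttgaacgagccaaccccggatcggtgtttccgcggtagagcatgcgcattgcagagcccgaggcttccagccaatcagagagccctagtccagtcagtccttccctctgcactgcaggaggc
Ndufaf4: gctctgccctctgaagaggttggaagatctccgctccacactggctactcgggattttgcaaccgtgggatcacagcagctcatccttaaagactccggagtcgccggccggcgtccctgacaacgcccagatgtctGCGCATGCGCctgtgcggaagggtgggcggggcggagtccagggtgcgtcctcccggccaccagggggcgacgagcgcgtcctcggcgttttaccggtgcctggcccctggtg
Atp5g2: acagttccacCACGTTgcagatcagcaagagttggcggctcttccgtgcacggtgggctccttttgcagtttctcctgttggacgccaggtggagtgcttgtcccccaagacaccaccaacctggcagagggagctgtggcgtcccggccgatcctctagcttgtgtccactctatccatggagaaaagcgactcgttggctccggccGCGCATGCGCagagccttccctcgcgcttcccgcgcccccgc
In Atp5sl the E-box begins 101 bases upstream of the RefSeq start, and in Ndufa7 it begins 145 bases upstream of it, between that start and the start of Rps28, which encodes a ribosomal protein and is read in the other direction. The Ndufa6 stretch lies wholly within its region, which had the highest BMAL1 signal of the 13, and holds none of the 3 motifs. In Ndufaf4 the NRF1 palindrome spans the edge of the region, with 8 of its 10 bases inside. In Atp5g2 it meets the region with 1 of its 10 bases, and CACGTT lies outside.

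Over all members, windows from 250 bases before to 50 after the start could be searched for 79, with 3 of them matched through an older symbol. An E-box on either strand stood in 7 of 79 windows (8.86%), against 10.5% of 9585 windows of genes with at least 100 reads. Among members with a BMAL1 region it stood in 3 of 11 (27.3%), and among the others in 4 of 68 (5.88%). The 3 include Atp5f1, whose E-box, at -249 from the RefSeq start, lies outside its region. CACGTT stood in 5.06% of member windows and in 5.55% of all. The NRF1 palindrome stood in 8.86% of member windows and 2.23% of all, CCGGAAG (an ETS-family core) in 26.6% and 19.3%, and AAGATGG (a YY1 core, both strands) in 16.5% and 7.54%. The split between members with and without a region was not limited to the E-box, and all these splits rest on few windows. The YY1 core stood in 5 of 11 (45.5%) against 8 of 68 (11.8%), and CACGTT in 2 of 11 (18.2%) against 2 of 68 (2.94%). The NRF1 palindrome stood in 2 of 11 (18.2%) against 5 of 68 (7.35%), and the ETS core in 1 of 11 (9.09%) against 20 of 68 (29.4%). These are counts of letters in a fixed window, so a region elsewhere was not searched.

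**Figure D1:**
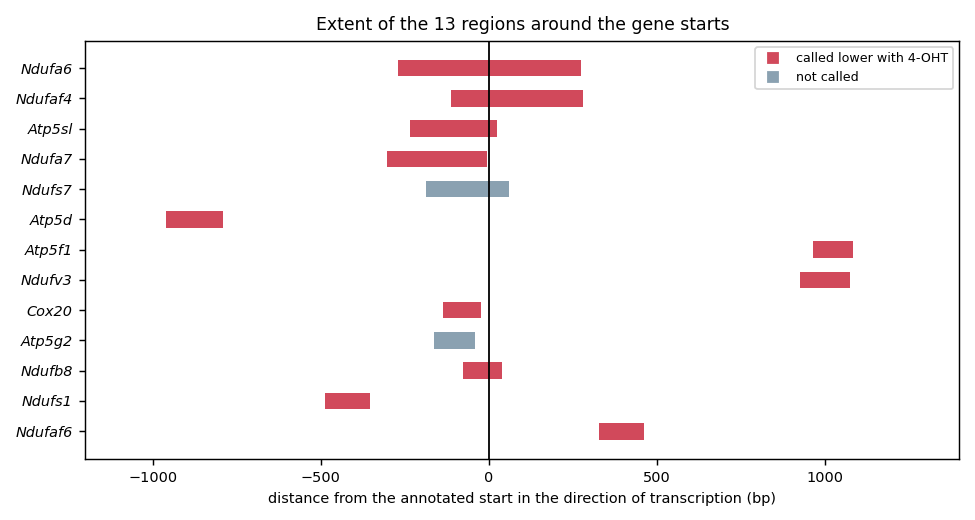
Extent of the 13 regions relative to the annotated start of their gene, in bp along the direction of transcription, ordered by BMAL1 signal with EtOH. Red bars mark the 11 regions called lower with 4-OHT, grey bars the 2 that were not; the 5 regions covering a start belong to Ndufa6, Ndufaf4, Atp5sl, Ndufs7 and Ndufb8.

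BMAL1 signal at the members' regions was lower with 4-OHT. The regions carry the peak caller's names for the control, so they were chosen for high signal with EtOH. That choice by itself favours a lower value with 4-OHT, most at regions with few reads, and its share in the fall was not tested. Signal is given as reads per 10000000 library reads (RP10M), without division by region length. Over the 13 regions together, control libraries gave 497.7 and 429.8, treated libraries 123.0 and 140.0, and inputs between 28.84 and 32.55. Of the 13 regions, 11 passed the test as lower (edgeR quasi-likelihood with library totals, Benjamini-Hochberg over 4740 regions, adjusted p below 0.05), where 93.8% of all regions did, and in all 13 both 4-OHT libraries were below both EtOH libraries, as in 98% of all regions. The median log2 change was -1.44, a 2.7-fold lower signal, against -1.64 over the 2944 regions within 1 kb of any start and -1.66 over all regions. Regions at these genes were shorter and weaker at the median than regions near any start: their median length was 149 bp against 236 bp, their median signal with EtOH was 18.5 and 15.3 RP10M against 25.2 and 22.7, and 5 of 13 exceeded the median of regions near a start.

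These calls rest on library totals. With TMM factors made from the regions themselves, which move the median change over all regions from -1.66 to 0.018, 1 region was called lower (Ndufa6) and 1 higher (Ndufs7), and without EtOH replicate 1 the count of lower calls was 7. Calls at Atp5f1, Cox20, Ndufs1 and Ndufaf6 were the ones missing then, and DESeq2, with 6 calls, lacked those and Ndufb8.

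Ndufa6, an accessory subunit of complex I, had the strongest region of the 13, at chr15:82354019-82354562 across its start, ranked 208 by signal among the 4740. Its signal was 182 and 187 RP10M with EtOH and 28.4 and 39.1 with 4-OHT, and its inputs held 8.74 and 7.43 with EtOH and 6.41 and 4.185 with 4-OHT. Both 4-OHT libraries were far below both EtOH libraries and still above every input. The signal fell 5.33-fold (log2 change -2.41, SE 0.17, edgeR adjusted p = 2.3e-45). It was called lower under all 8 alternatives run for the region, TMM factors included.

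Among the assembly factor genes of complex I, 3 had a region. At Ndufaf4 (chr4:24897972-24898362, across the start) the signal was 75.5 and 60.1 RP10M with EtOH and 12.4 and 21.2 with 4-OHT, with no overlap between treatments. BMAL1 there fell by 1.94 on the log2 scale (SE 0.26, edgeR adjusted p = 2.5e-13). At Atp5sl (chr7:25619259-25619517, across the start and over the E-box printed above) the libraries gave 52.6 and 36.3 with EtOH and 6.55 and 14.0 with 4-OHT. Again the treatments did not overlap, and the log2 change was -2.01 (SE 0.31, edgeR adjusted p = 5.4e-10). Ndufaf6, whose product is needed for the early membrane part of complex I, had the weakest of the 13 regions, at chr4:11075744-11075878 inside the gene and outside its exons. There the values were 11.8 and 6.81 RP10M with EtOH and 5.82 and 1.93 with 4-OHT, which do not overlap but nearly meet. Its log2 change of -1.35 (SE 0.52, edgeR adjusted p = 0.011) was no longer called by DESeq2 (adjusted p = 0.174), without EtOH replicate 1 (0.224) or without 4-OHT replicate 2 (0.293).

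Among the subunit genes of complex I, Ndufa7 shares its region with Rps28: the stretch chr17:33824313-33824610 ends 4 bp before the annotated Ndufa7 start and overlaps an Rps28 exon. Its signal was 37.8 and 25.5 RP10M with EtOH and 10.2 and 13.04 with 4-OHT, and the log2 change was -1.39 (SE 0.32, edgeR adjusted p = 2.5e-05). Ndufv3, which encodes a small accessory subunit near the NADH site, had its region at chr17:31521041-31521189, inside the gene and 926 bp past the start. The signal went from 14.1 and 14.2 RP10M with EtOH to 2.91 and 1.93 with 4-OHT, the latter resting on 4 reads in each library. The replicates of each treatment lay close together there, and the log2 change was -2.56 (SE 0.52, edgeR adjusted p = 2.0e-06). The call was lost with the input change subtracted (-1.79, edgeR adjusted p = 0.152). So were the calls at Atp5f1, Cox20, Ndufb8, Ndufs1 and Ndufaf6. Ndufb8 (chr19:44555376-44555493, across the start) changed by -1.43 (SE 0.46) and Ndufs1 (chr1:63177177-63177308, over an exon of Eef1b2, a translation elongation factor gene, and 355 bp upstream of its own start) by -1.61 (SE 0.49). Both were called, with edgeR adjusted p of 0.0024 and 0.0013. Reads were few: Ndufb8 had 13 and 27 with EtOH and 9 and 7 with 4-OHT, and Ndufs1 had 23 and 13 with EtOH and 6 and 7 with 4-OHT.

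Ndufs7 had the single complex I region that did not pass the test. The gene encodes the core subunit that carries the last iron-sulfur cluster before ubiquinone, and its region covers the start at chr10:80249267-80249512. The signal was 23.7 and 29.5 RP10M with EtOH and 19.6 and 18.8 with 4-OHT, so the treatments did not overlap but lay close. The log2 change of -0.48 (SE 0.30, 95% interval -1.07 to 0.11) had an edgeR adjusted p of 0.112. Its interval leaves out the median change of -1.66 over all regions. Input at this site was 2.91 and 4.6 RP10M with EtOH and 3.2 and 1.2 with 4-OHT, which overlap (log2 change -1.19, unadjusted p = 0.0482 and adjusted p = 0.964 by edgeR). Its part in the result was not tested, and with the input change subtracted the log2 change was 0.68 (adjusted p = 0.364). Relative to the regions as a whole, with TMM factors, Ndufs7 was called higher (log2 change 1.2, adjusted p = 0.00141).

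Among the ATP synthase genes 3 had a region. Atp5d encodes the delta subunit of the catalytic F1 part, and its region at chr10:80141355-80141523 ends 792 bp before the start. The values were 24.4 and 17.6 RP10M with EtOH and 8.01 and 4.83 with 4-OHT. The treatments lay well apart there (log2 change -1.74, SE 0.40, edgeR adjusted p = 2.1e-05). Input there was 0.728 and 1.42 with EtOH and 2.4 and 3.89 with 4-OHT (edgeR unadjusted p = 0.0308, adjusted p = 0.964), and its part in the result was not tested. Atp5f1 encodes subunit b of the peripheral stalk. Its region at chr3:105959166-105959283 lies 965 bp inside the annotated gene, covers the RefSeq start, which is 985 bp from the annotated start, and is also within 1 kb of the start of Wdr77. There 18.5 and 10.2 RP10M with EtOH became 4.37 and 6.28 with 4-OHT (log2 change -1.34, SE 0.44, edgeR adjusted p = 0.0031). Atp5g2, one of 3 genes for the c subunit of the proton ring, was the second region without a call. It lies 42 bp upstream of the start at chr15:102671089-102671209, with Mir688 starting within 1 kb as well. Its 14.8 and 10.2 RP10M with EtOH and 10.2 and 6.76 with 4-OHT almost meet, and the log2 change was -0.58 (SE 0.42, 95% interval -1.40 to 0.24, edgeR adjusted p = 0.171). As at Ndufs7, the interval leaves out the median change of -1.66 over all regions.

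Cox20 was the single complex IV gene with a region, at chr1:178319018-178319130, 23 bp upstream of the start. Its signal was 16.3 and 9.64 RP10M with EtOH and 3.64 and 5.31 with 4-OHT. The treatments did not overlap, and the log2 change was -1.44 (SE 0.46, edgeR adjusted p = 0.0024).

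**Figure D2:**
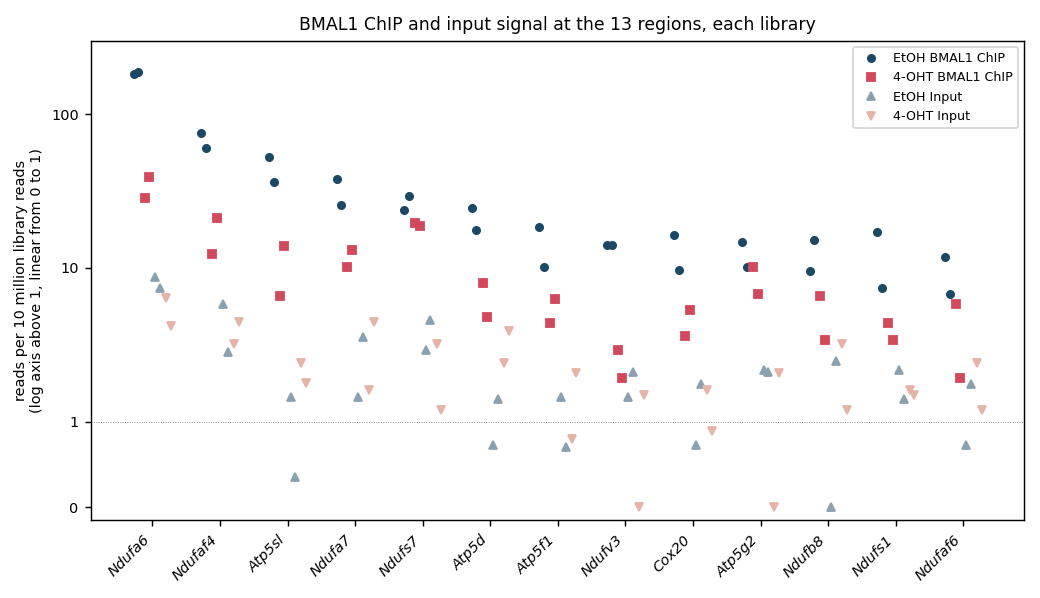
BMAL1 signal (RP10M) at the 13 regions in each of the 8 ChIP and input libraries, on an axis that is logarithmic above 1 and linear from 0 to 1; each symbol is 1 library. Ndufa6 stands highest at 182 and 187 with EtOH, and at Ndufs7 and Atp5g2 the 4-OHT points lie close under the EtOH points.

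Because the regions carry the peak caller's names for the control, they were chosen for signal with EtOH, and their level over input in EtOH-treated cells describes that choice: all 13 regions were above input (edgeR over all 8 libraries, adjusted p below 0.05), as were 99.5% of all regions. The median ratio of ChIP to input was 8.55-fold with EtOH, against 12.1-fold over regions near any start. In 4-OHT-treated cells 8 of the 13 were above input, against 80.6% of all regions, and the median ratio was 3.21-fold. The 5 that did not pass were Atp5d (log2 ratio 0.82, edgeR adjusted p = 0.126), Ndufv3 (1.07, 0.221), Ndufb8 (1.37, 0.0547), Ndufs1 (1.27, 0.0869) and Ndufaf6 (1.16, 0.129). These sites had at most 11 ChIP reads per 4-OHT library, as did Cox20, which was called (adjusted p = 0.00903). Ndufb8 was called without 4-OHT ChIP replicate 2, without 4-OHT input replicate 1 and without either EtOH input. Ndufaf6 was called without 4-OHT ChIP replicate 2, while Cox20 and Atp5f1 lost their calls without that library. Cox20 also lost its call without 4-OHT input replicate 2 (log2 ratio 1.49, against 2.02 with all libraries). Atp5f1 also lost its call without 4-OHT input replicate 1 (1.37, against 1.63). With TMM factors over the regions, 2 of 13 were above input with EtOH and 0 with 4-OHT. Between the inputs of the treatments, edgeR called 0 of 13 regions (0% of all regions), with 2 at an unadjusted p below 0.05, Ndufs7 and Atp5d, where 4.6% of all regions were.

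The members' transcripts were abundant. Levels between genes are compared as RPKM, that is, counts scaled to annotated exon length and library size, computed here. The median member stood at 73.1 RPKM over the 4 libraries, against 12.5 for genes with at least 100 reads, and 80 of the 93 were above that value. The highest was Atp5b, the catalytic beta subunit of the ATP synthase, at 685 RPKM, and the lowest was Cox7a1, the heart and muscle form of a complex IV subunit, at 1.1. Together the 93 genes took 0.751% and 0.722% of reads with EtOH and 0.744% and 0.774% with 4-OHT, so the treatments overlapped.

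Subunit genes stood well above assembly factor genes. The complex IV subunits had a median of 161 RPKM (74.4 to 458), the F1 subunits of the ATP synthase 160 (90.5 to 685), the Fo and stalk subunits 103 (22.4 to 259), complex III subunits 88.2 (45.6 to 159) and complex II subunits 80.8 (55.4 to 85.9). In complex I the 7 core subunits had a median of 68.2 and the 28 accessory subunits one of 58.5. Assembly factors of complex I had a median of 6.06 RPKM (3.32 to 40.4), and those of complex IV one of 10.2 (4.66 to 61.6). Ndufaf2 at 40.4 and Cox14 at 61.6 were the highest of these.

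The isoforms present were the general ones. Cox4i1, the common form of a regulatory complex IV subunit, stood at 458 RPKM, while its lung form Cox4i2 had 7 reads in all libraries together. Cox6a1 stood at 261 RPKM and Cox6a2, the heart and muscle form, had 71 reads, which left it just under the minimum of 100, as Cox7a1 with 119 was just above it. Cox6b1 stood at 160 and Cox8a at 169 RPKM, against 29 reads for the testis form Cox6b2 and none for Cox8b or Cox8c. Cox7a2 (88.8 RPKM) and the related supercomplex factor gene Cox7a2l (93.3) were both far above Cox7a1, and Cox7b stood at 91.8 with Cox7b2 at 0 reads. Ndufa4, now counted as a complex IV subunit, stood at 298 RPKM and its hypoxia-inducible relative Ndufa4l2 had 26 reads. Of the 3 genes that encode the same mature c subunit, Atp5g3 was highest at 259 RPKM, followed by Atp5g2 at 79.5 and Atp5g1 at 22.4, and their ranges over the 4 libraries did not overlap. For the 4 genes at 0 reads, the count allows up to 3 reads in 290888976, or 0.0103 CPM, for counting error only.

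One of those 0 values says nothing about the gene. Ndufs5, an accessory subunit of complex I, shares 484 of its 509 exon bases (95.1%) with exons of BC002163 on the same strand, which drew 7770 reads. Per the file header, the counting command set no option for reads that fall on more than 1 gene, and featureCounts by default assigns such reads to neither, so Ndufs5 was not measured. The RefSeq table also lists 16 pseudogenes named after genes of these families, among them 4 for Atp5k, 2 each for Atp5l and Uqcrh and 1 each for Cox5b, Cox7c and Ndufab1, and the sources used here do not say how reads shared with such copies were treated.

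**Figure D3:**
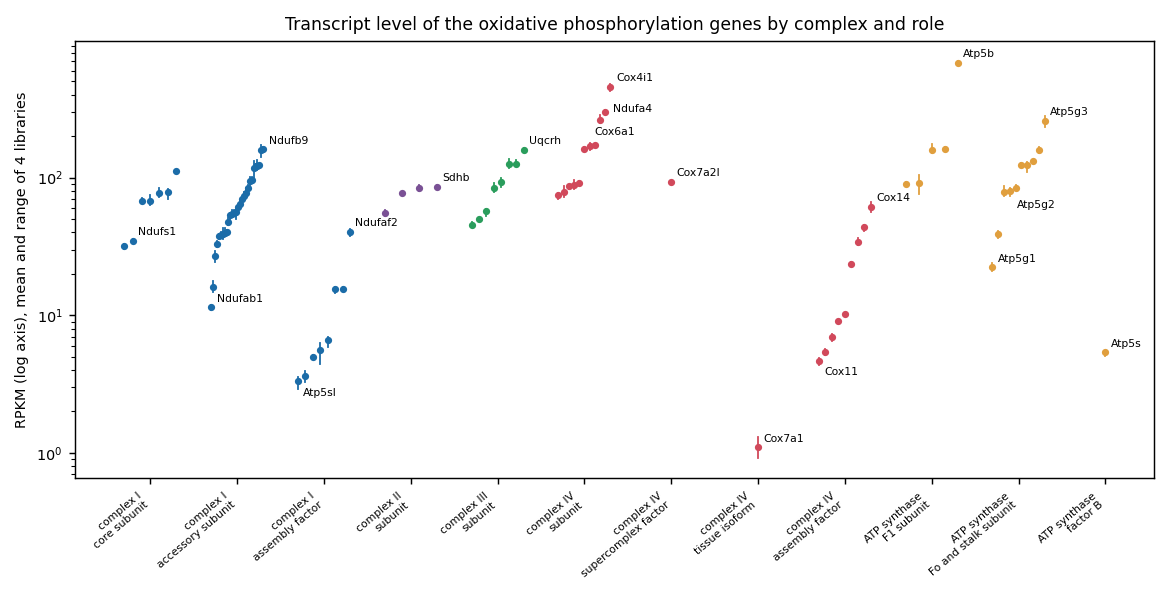
Transcript level of the 93 genes as RPKM on a log axis, grouped by complex and role; points are means and bars the range of the 4 mRNA libraries, 2 per treatment. Assembly factors of complexes I and IV span 3.32 to 61.6 RPKM, subunits of all complexes 11.4 to 685, and the tissue isoform Cox7a1 is lowest at 1.1.

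At the mRNA level no member changed by the test. Of 93 genes edgeR called 0 (quasi-likelihood, Benjamini-Hochberg adjusted p below 0.05), where it called 2.44% of 13216 tested genes (0.802% as rises and 1.63% as falls). At an unadjusted p below 0.05 there was 1 member, Ndufb4, against 10.1% of all tested genes, and DESeq2 also called 0 of 93 against 1.9% of all, with 1 member at an unadjusted p below 0.05. In bulk RNA, a change in RNA per cell and a change in the make-up of the culture cannot be told apart. The log2 changes had a median size of 0.035, against 0.069 over all tested genes, and 83 of 93 were under 0.1. Members were also more abundant per exon length, at a median of 73.1 RPKM against 12.5 for genes with at least 100 reads. They were shorter as well, with a median exon length of 758 bp against 2866 bp, so RPKM does not compare their reads per gene. Genes of like abundance were not compared, so the smaller size cannot be called particular to the members. The 95% intervals are for single genes, without adjustment for their number, and rest on the spread between these libraries alone. For 77 members the whole interval lay within 0.25 of 0 on the log2 scale, a 1.19-fold change, and for 91 within 0.4. The exceptions to the last limit were Ndufb4 and Cox7a1.

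The direction of these small changes was not stable. With all libraries, 62 members had a positive and 31 a negative log2 change, with a median of 0.021 against 0.0021 over all tested genes, and quartiles of -0.014 and 0.048. Without 4-OHT replicate 2 the median was -0.0098 with 36 positive, and without EtOH replicate 2 it was -0.0068 with 42 positive. By complex the median was 0.024 for complex I, -0.0088 for complex II, -0.0036 for complex III, 0.022 for complex IV and 0.018 for the ATP synthase. Groups did not overlap in 11 members. In 6 of the 93 both 4-OHT libraries were above both EtOH libraries, a smaller share than the 18.7% of all tested genes. In 5 of the 93 they were below, again a smaller share than the 18.3% of all.

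Ndufb4, an accessory subunit in the membrane arm of complex I, had the largest negative log2 change. It stood at 13.3 and 12.9 CPM with EtOH and 10.99 and 11.3 with 4-OHT, with both treated libraries below both controls by more than the replicates differed. The log2 change was -0.23 (SE 0.09, 95% interval -0.42 to -0.05), with an unadjusted p of 0.0137 and an adjusted p of 0.264 by edgeR. It had no BMAL1 region within 1 kb.

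Ndufaf4, the assembly factor gene with the second strongest region, came next. It stood at 24.9 and 25.4 CPM with EtOH and 23.9 and 21.2 with 4-OHT, without overlap, although the 4-OHT libraries were farther apart than the treatments at their nearest. The log2 change was -0.16 (SE 0.08, 95% interval -0.32 to 0.0037, edgeR adjusted p = 0.514). Cox17, the copper chaperone of complex IV, went from 19.8 and 19.7 to 17.8 and 18.6 CPM (log2 change -0.12, SE 0.08, adjusted p = 0.729). Atp5sl (-0.10, SE 0.10) and Uqcr10, a small complex III subunit (-0.09, SE 0.08), complete the 5 most negative, and in both the treatments overlapped.

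On the positive side, Cox7a1 had the largest value on the fewest reads, at 0.365 and 0.335 CPM with EtOH and 0.431 and 0.475 with 4-OHT. Its log2 change of 0.37 had an SE of 0.32 and a 95% interval from -0.27 to 1.01 (edgeR adjusted p = 0.808). Ndufa2, an accessory subunit of complex I, stood at 65.5 and 51.7 CPM with EtOH and 61.9 and 69.4 with 4-OHT. EtOH replicate 2 was low and the other EtOH library lay between the treated ones, so the groups overlapped (log2 change 0.16, SE 0.09, edgeR adjusted p = 0.553). Without EtOH replicate 1 it was called higher, with a log2 change of 0.35 and an adjusted p of 0.0411. Uqcrfs1, the Rieske iron-sulfur subunit of complex III, went from 73.6 and 69.3 to 77.9 and 77.2 CPM without overlap (log2 change 0.12, SE 0.07, edgeR adjusted p = 0.597). Ndufaf3 (0.12, SE 0.13) overlapped between treatments, and Ndufb2 (0.11, SE 0.08) did not.

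**Figure D4:**
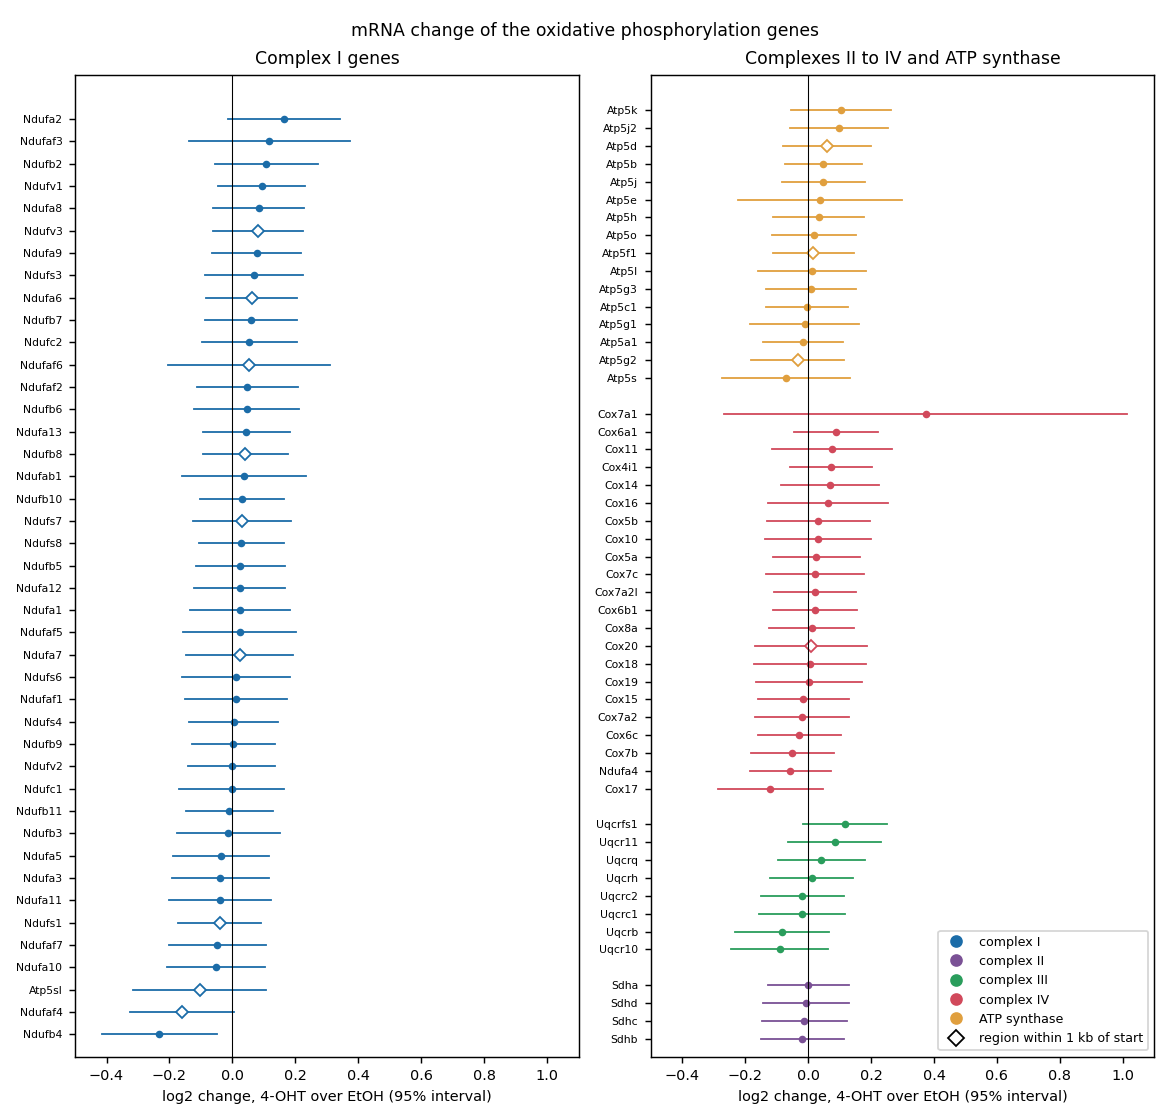
Log2 change of mRNA, 4-OHT over EtOH, of the oxidative phosphorylation genes, all but 1 of the 93, each with its 95% interval from edgeR, complex I on the left and the other complexes on the right; open diamonds mark genes with a BMAL1 region within 1 kb of the start. Only the interval of Ndufb4 leaves out 0 before adjustment, and Cox7a1 has the widest interval.

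The most abundant members of each complex were nearly level between treatments. Atp5b stood at 1281 and 1250 CPM with EtOH and 1285 and 1331 with 4-OHT (log2 change 0.048, SE 0.06), and Atp5g3 at 192 and 159 against 174 and 179 (0.0096, SE 0.07). Cox4i1 stood at 316 and 290.0 CPM with EtOH and 311 and 327 with 4-OHT (0.07, SE 0.06). Ndufa4 went from 153 and 146.5 to 143 and 145 CPM (-0.06, SE 0.06), with both treated libraries just below the controls. In complex I, Ndufb9 changed by 0.0021 (SE 0.07) and Ndufa7 by 0.02 (SE 0.08). In complex II, Sdhb changed by -0.02 and Sdhc by -0.01 (SE 0.07 for both), and in complex III Uqcrh changed by 0.01 and Uqcrq by 0.04 (SE 0.07 for both). None of these passed the test (edgeR adjusted p between 0.813 and 0.999).

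Differences between replicates mostly exceeded differences between treatments. For 86 of the 93 members (92.5%) the 2 libraries of at least 1 treatment differed by more than the fitted change, against 74.8% of all tested genes. The replicates also leaned in opposite directions: replicate 1 was above replicate 2 in 69 members with EtOH, replicate 2 above replicate 1 in 64 with 4-OHT, and both held in 54. The median log2 ratio of replicate 1 to replicate 2 was 0.057 with EtOH and -0.051 with 4-OHT. The highest EtOH ratios were those of Ndufaf3, Atp5e (the epsilon subunit of F1), Ndufa2 and Ndufa7, at 0.49, 0.46, 0.34 and 0.29 on the log2 scale.

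**Figure D5:**
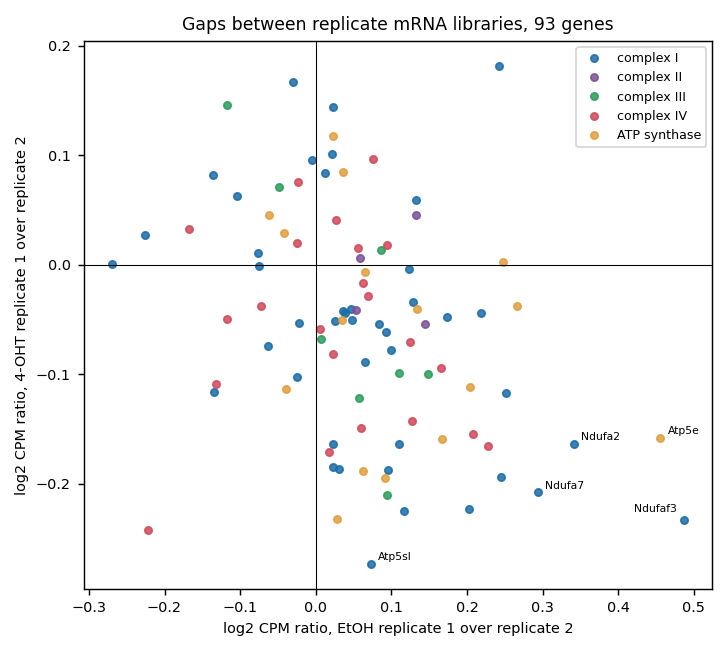
Log2 ratio of CPM between the 2 replicates, EtOH on the horizontal and 4-OHT on the vertical axis, 1 point per gene coloured by complex; lines mark no difference. Most points (54 of 93) lie at the lower right, where EtOH replicate 1 and 4-OHT replicate 2 are the higher libraries.

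The mRNA changes of members with and without a BMAL1 region are given side by side, with no test of their difference. The 13 genes with a region had a median log2 mRNA change of 0.023 (-0.16 to 0.081, 9 positive and 4 negative), and the 80 without one a median of 0.020 (-0.23 to 0.37, 53 positive and 27 negative). Ndufa6, whose region lost the most reads, had a log2 mRNA change of 0.06 (SE 0.07, edgeR adjusted p = 0.885), and Ndufv3 one of 0.08 (SE 0.07, adjusted p = 0.813). Ndufs7 and Atp5g2, whose regions were not called, stood at 0.03 and -0.03 (SE 0.08 and 0.07). The authors' deposited table, which lists 15 of the members among 3317 genes, marks 0 of the 15 as significant. In the authors' deposited table the lowest adjusted p-value among them is 0.807, for Ndufaf4 with a log2 fold change of -0.11.

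Other respiratory chain genes, which the symbols do not catch, were read from a separate list. Of 38 electron carrier and assembly genes, 37 were tested, 0 were called by edgeR in either direction, 21 had a positive and 16 a negative log2 change, and the median was 0.028 (-0.17 to 0.26). A region within 1 kb was present at 14 of the 38, among them Lrpprc, which stabilises mitochondrial mRNA, and the complex I assembly gene Ecsit. Cytochrome c (Cycs) stood at 44.5 and 45.4 CPM with EtOH and 44.3 and 41.2 with 4-OHT (log2 change -0.07, SE 0.07, edgeR adjusted p = 0.845). The widest changes were 0.26 for Sdhaf1, a complex II assembly factor (4.52 and 5.33 against 5.47 and 6.28 CPM, adjusted p = 0.397), and -0.17 for Usmg5, a small ATP synthase subunit with a BMAL1 region (20.1 and 17.2 against 17.1 and 16.1 CPM, adjusted p = 0.516).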

How the data were processed

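Stranded mRNA-seq gave gene expression and ChIP-seq gave BMAL1 binding, each ChIP with an input. The 12 libraries fall into 6 groups of 2 by their titles. Per the file headers, the authors made whole read counts per gene by featureCounts v1.5.0-p1 for the exons of a UCSC mm10 annotation, counting reverse-stranded reads. The authors also deposited read counts in 4740 regions for each ChIP and input library, and a signal table whose values equal 5 plus reads per 10000000 library reads, from which library totals were recovered as whole numbers. The deposited region files further hold a fold enrichment (a ratio), a −log10 p and q value and a score per region, which entered no test. Regions carry the caller's names for the control, and the sources used here give neither the aligner nor whether replicates were pooled. The authors' deposited comparison table, marked as DESeq2 output, gives a mean signal, a log2 fold change, a p-value and a test score. The submitters' processing notes name bedtools 2.25.0.

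The tests on counts ran in edgeR 4.0.16 under R 4.3.3 (robust quasi-likelihood fits, limma 3.58.1 loaded with it), with TMM factors (0.992 to 1.01) and the default expression filter for genes, and with library totals and no factors for regions, since factors made from the regions would set a shared change to about 0. Adjustment (Benjamini-Hochberg) ran over all 13216 genes or all regions, calls are at an adjusted p below 0.05, and intervals are 95%. The scripts were tested on simulated data. CPM use totals times TMM factors, and RPKM divides them by annotated exon length. Alternatives were DESeq2 1.42.0, other factors, no filter, other distances, subtraction of the input change, each library left out and a replicate block. Members and gene lists were chosen with earlier results of these data known. Genes named in the text were those called, the 5 most positive and 5 most negative, and the 2 most abundant of each complex. They also include the isoform groups, members with a region, and from the other lists called genes and some of the extremes. Further names, such as Ndufaf2, Cox14, Atp5e, Cycs, Lrpprc, Ecsit, Nrf1, Pprc1 and Slc25a3, were chosen after their values were seen. The RefSeq promoter table of GRCm38.p6 gave sequences, and 14 members had none there. Replicates differed by more than sampling noise in every group, so each library was counted once. For 1 member, counted in the totals, no values are reported here by name.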

Additional observations from a re-analysis of the deposited data

How the results depend on the processing

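The mRNA result kept its counts of 0 rises and 0 falls among the 93 genes under DESeq2, RLE factors, no factors, no expression filter and the replicate block. Leaving out each mRNA library in turn gave 0 to 1 rises, the 1 being Ndufa2 without EtOH replicate 1, and 0 falls. Fits without a library leave 1 arm with a lone library, which is assumed to vary like the others. Of 38 named mRNA changes, none of them called, 24 had a range over the left-out libraries that included 0: Atp5sl (-0.25 to 0.019), Ndufaf3 (-0.10 to 0.39), Atp5g3 (-0.12 to 0.15), Ndufb9 (-0.042 to 0.050), Ndufa7 (-0.12 to 0.18), Sdhb (-0.043 to 0.0091), Sdhc (-0.080 to 0.063), Uqcrh (-0.022 to 0.045), Uqcrq (-0.019 to 0.10), Cox6b1 (-0.019 to 0.061), Cox7a2 (-0.13 to 0.10), Cox7a2l (-0.014 to 0.059), Cox8a (-0.076 to 0.093), Atp5g1 (-0.11 to 0.10), Atp5g2 (-0.13 to 0.056), Ndufa6 (-0.0051 to 0.13), Ndufs7 (-0.087 to 0.14), Atp5d (-0.061 to 0.17), Atp5f1 (-0.0038 to 0.039), Ndufv3 (-0.016 to 0.17), Cox20 (-0.073 to 0.095), Ndufb8 (-0.0068 to 0.091), Ndufs1 (-0.083 to 0.0018) and Ndufaf6 (-0.058 to 0.18). Without factors the log2 changes of Sdhb, Sdhc, Cox7a2 and Atp5g1 became 0.0027, 0.0091, 0.0010 and 0.010, while the median of all genes moved from 0.0021 to 0.023, and in DESeq2 that of Ndufb9 became -0.00031.

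Of the 11 lower calls among the BMAL1 regions, 6 were made by DESeq2, 5 after subtracting the input change, 1 with TMM factors over the regions, which also made 1 higher call, and 7 to 11 without each ChIP library in turn. With those TMM factors the log2 change was 0.30 at Ndufa7, 1.2 at Ndufs7, 0.35 at Atp5f1, 0.25 at Cox20, 1.1 at Atp5g2, 0.23 at Ndufb8, 0.070 at Ndufs1 and 0.32 at Ndufaf6. These factors take the shared change of all regions as 0 by construction. With the input change subtracted, Ndufs7 stood at 0.68, and the cause was not tested. Against input, TMM factors left 2 calls with EtOH and 0 with 4-OHT, where the log2 ratio was -0.21 at Ndufa7, -1.08 at Atp5d, -0.24 at Atp5f1, -0.79 at Ndufv3, -0.49 at Ndufb8, -0.59 at Ndufs1 and -0.70 at Ndufaf6. Calls at 4-OHT over input numbered 7 to 9 without each library. Regions within 500 bp gave 8 lower calls and those within 5 kb gave 14. Depth limits the weak regions most: Ndufaf6 rested on 16 and 12 EtOH reads.

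The labels do not say whether same-numbered libraries are paired. Deviations of same-numbered libraries correlated at -0.168 for mRNA, 0.011 for ChIP and 0.025 for input. Such values cannot decide the question, since counting noise at regions with few reads also lowers the correlation. With the replicate block, 0 members rose or fell (60 and 152 of all genes), and 11 regions were called lower, 13 above input with EtOH and 8 with 4-OHT. With the numbers crossed for mRNA, an alternative chosen after seeing the data, 1 member rose and 1 fell, beside 518 and 611 of all genes.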

Other observations

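Genes that act upstream of or beside the respiratory chain were read from 3 further lists, and edgeR called 0 genes of any of them in either direction at an adjusted p below 0.05. Among 15 regulators of mitochondrial biogenesis, 9 log2 changes were positive and 6 negative, with a median of 0.043, and 7 of the genes had a BMAL1 region within 1 kb of the start. They include Nrf1, the factor whose palindrome was searched in the promoters, at 63.5 and 59.7 CPM with EtOH and 58.0 and 62.0 with 4-OHT (log2 change -0.04, SE 0.07), and the coactivator gene Pprc1, at 142 and 140 against 128 and 137 CPM (-0.09, SE 0.06). The coactivator genes Ppargc1a and Ppargc1b were low, with at most 0.418 and 0.564 CPM in any library. Their log2 changes were the lowest and highest of the list, at -0.32 (SE 0.34) and 0.30 (SE 0.31).

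Of 17 citrate cycle and pyruvate dehydrogenase genes, 5 had a positive and 12 a negative log2 change, with a median of -0.014, and 2 had a BMAL1 region (Ogdh and Suclg2). Pdhb, which encodes the beta subunit of the first pyruvate dehydrogenase enzyme, was lowest, at 56.6 and 60.2 CPM with EtOH and 53.2 and 53.0 with 4-OHT. Both treated libraries were below both controls, with a log2 change of -0.14 (SE 0.07, edgeR adjusted p = 0.509). Of 10 mitochondrial carrier and porin genes, 9 were tested, 5 log2 changes were positive and 4 negative, the median was 0.018, and Slc25a4, Vdac1 and Vdac2 had a region. The phosphate carrier gene Slc25a3 stood at 423 and 400 CPM with EtOH and 390 and 393 with 4-OHT (log2 change -0.07, SE 0.06, edgeR adjusted p = 0.811).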
